A study of Mus musculus with 7 samples.

Results

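Calmodulin and CaM kinase genes were described across bulk RNA-seq libraries from mouse brain. The members were 9 of the 55367 genes in the count table, matched by symbol: the calmodulin genes Calm2 and Calm3, the calmodulin-binding protein genes Nrgn and Pcp4, the CaMKII subunit genes Camk2a, Camk2b, Camk2d and Camk2g, and Camk4. The 4 CRS libraries were set against the 3 noCRS libraries. Per the labels, all came from C57BL/6J mice marked P90, and the material was total RNA of neurons in the mPFC-LHB projection (medial prefrontal cortex to lateral habenula). CRS and noCRS are the only treatment labels, and the series title speaks of chronic stress. The sources used here do not state how these neurons were labelled or collected, or whether each library came from its own animal. The p-values therefore measure the spread between these libraries, which may be technical.

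Calmodulin is a small calcium sensor. When calcium enters a neuron it fills calmodulin, which then binds and switches on enzymes, among them the CaM kinases and the phosphatase calcineurin. CaMKII is a holoenzyme of several subunits that keeps itself active by phosphorylating itself, and it is known for its part in the strengthening of glutamatergic synapses. Neurogranin (Nrgn) and Pcp4 are small proteins that bind calmodulin through an IQ motif and change how much of it is free and how it exchanges calcium. Camk4 is a kinase of the nucleus that phosphorylates the transcription factor CREB.

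The calmodulin genes are known to encode the same protein from different DNA. The start of the coding sequence of both calmodulin members is shown because it bears on how well their reads can be told apart. Capitals mark the 15 of these 90 bases that differ between them. Both are given 5′ to 3′ on the gene's strand, from GENCODE M21 transcripts (GRCm38).
Calm2: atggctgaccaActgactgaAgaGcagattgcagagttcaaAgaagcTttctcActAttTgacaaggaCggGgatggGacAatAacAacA
Calm3: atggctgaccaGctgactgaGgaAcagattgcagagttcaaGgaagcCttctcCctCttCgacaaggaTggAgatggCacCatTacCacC
Over all 447 coding bases, 82.6% were identical, and the longest run shared without a difference was 17 bases. Reads longer than that from the coding part differ between these genes. Between pairs of CaMKII genes the longest shared coding run was 23 to 32 bases. Processed pseudogenes of calmodulin genes were not assessed, and counts of Calm2 and Calm3 are uncertain to that extent.

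Nrgn, Calm2 and Pcp4 rose in CRS. Nrgn was 14.8-fold higher, Calm2 4.10-fold higher and Pcp4 3.56-fold higher by edgeR's quasi-likelihood test. No CaM kinase member passed the threshold (adjusted p below 0.05, Benjamini-Hochberg over all tested genes), although Camk2b had no overlap between the groups. In all, 3 of the 9 members were called higher, where 2.07% of the 17833 tested genes were (2.3% in either direction). edgeR called 0 members lower, where 0.23% of genes were. Before adjustment (edgeR p under 0.05) 0 members were lower, where 697 of the 17833 tested genes were. DESeq2 called 4 members higher (6.84% of genes) and 0 lower (2.3%), and limma-voom called 3 higher (2.93%) and 0 lower (0.656%). In 4 of the 9 members every CRS library was above every noCRS library, which held for 10.1% of tested genes. All 9 members passed the expression filter. Their median log2 fold change was 1.11, and that of all tested genes was -0.02. Expression values are TMM-normalised CPM (counts scaled to library size), which depend on gene length, and values per kb of exon are used where genes are compared with each other.

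**Figure D1:**
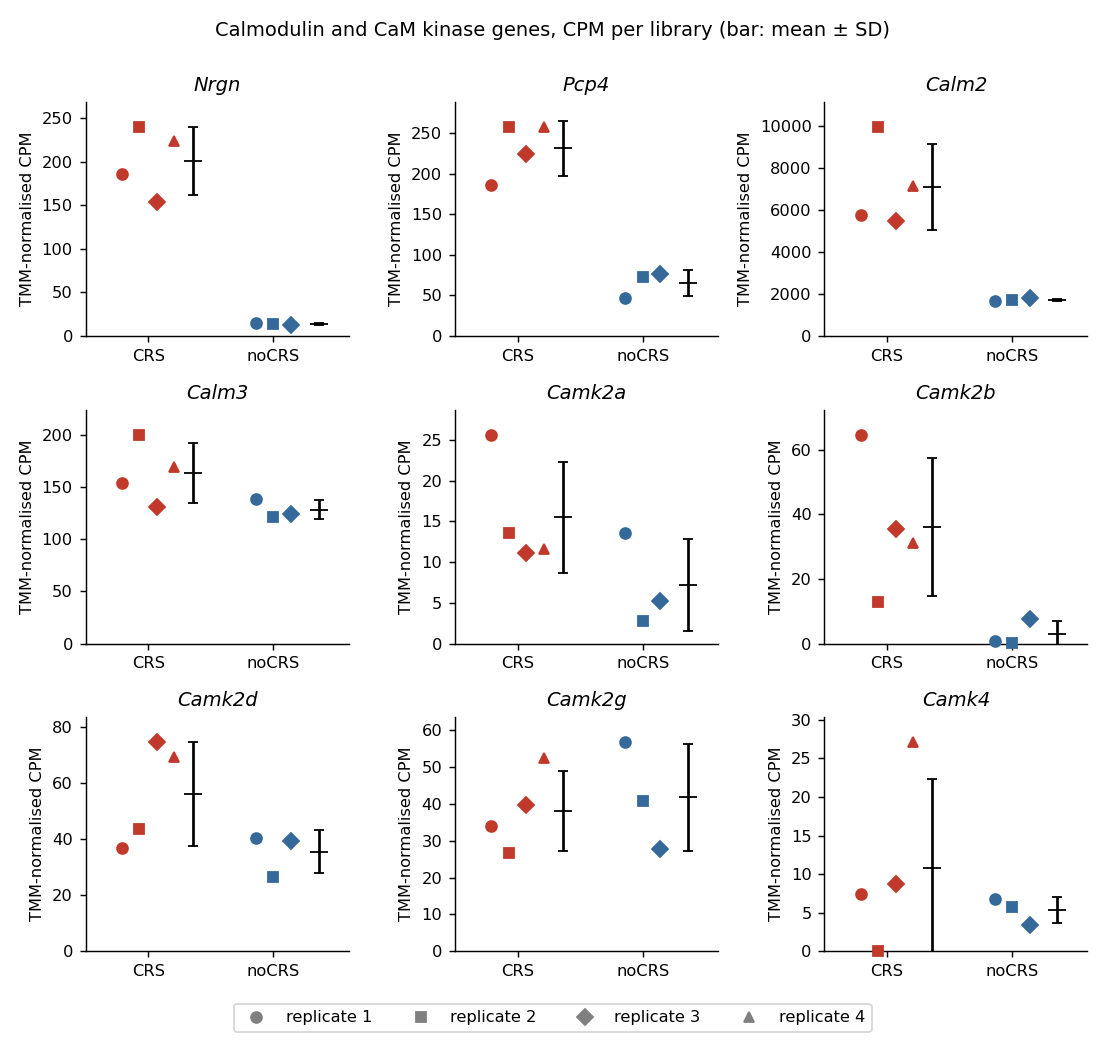
TMM-normalised CPM of each member (vertical axes from 0, own scale per gene) in the CRS libraries, left, and the noCRS libraries, right. Points are libraries, with 1 symbol per replicate number, and the black bar is the mean with its SD (lower ends below 0 are not drawn). The groups stand apart for Nrgn, Pcp4, Calm2 and Camk2b and overlap for the other members, and Camk4 is at 0 in CRS replicate 2.

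The groups differed in the summed levels of neuronal marker genes, though not in every marker. Library totals ran from 32346275 to 39740623 counts in CRS and from 28677703 to 39965667 counts in noCRS. The 8 excitatory cortical neuron markers summed to 357 to 524 CPM in CRS and 2.83 to 11.7 CPM in noCRS. Of these 3 rose, and Neurod1 and Slc17a6 had 0 counts in every noCRS library. The 7 general neuronal markers summed to 2916 to 4077 CPM in CRS and 358 to 445 CPM in noCRS. Of these 3 rose (Snap25, Syt1 and Stmn2), and Snap25 held most of the sum, with 2747 CPM on average in CRS and 158 CPM in noCRS. Map2, in the same list, had 175 ± 53.7 CPM in CRS (SD, n = 4) and 186 ± 19.0 CPM in noCRS (SD, n = 3). Of the 7 oligodendrocyte precursor markers 4 fell, and their sum was 1042 to 1454 CPM in CRS and 1912 to 2259.8 CPM in noCRS. Sums of the 6 oligodendrocyte markers overlapped, with 25714 to 50553 CPM in CRS and 31265 to 36149.6 CPM in noCRS, as did those of the 8 astrocyte markers, with 4670.2 to 9808 CPM in CRS and 8419 to 9596 CPM in noCRS. Glial transcripts were thus abundant in both groups, although the labels name neurons. The 6 inhibitory neuron markers summed to 150.2 to 661 CPM in CRS and 34.6 to 37.5 CPM in noCRS. Of the 5 tested, 2 rose (Sst and Gad1). Sst had 168 ± 156 CPM in CRS (SD, n = 4) and 2.54 ± 0.286 CPM in noCRS (SD, n = 3). Pvalb had 2.17 ± 2.33 CPM in CRS and 2.15 ± 2.17 CPM in noCRS, and the groups overlapped for Gad2. The neuronal marker sums moved with the members that rose, and their part in those results was not tested. In bulk RNA, fewer cells of a type and less RNA per cell cannot be told apart.

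**Figure D2:**
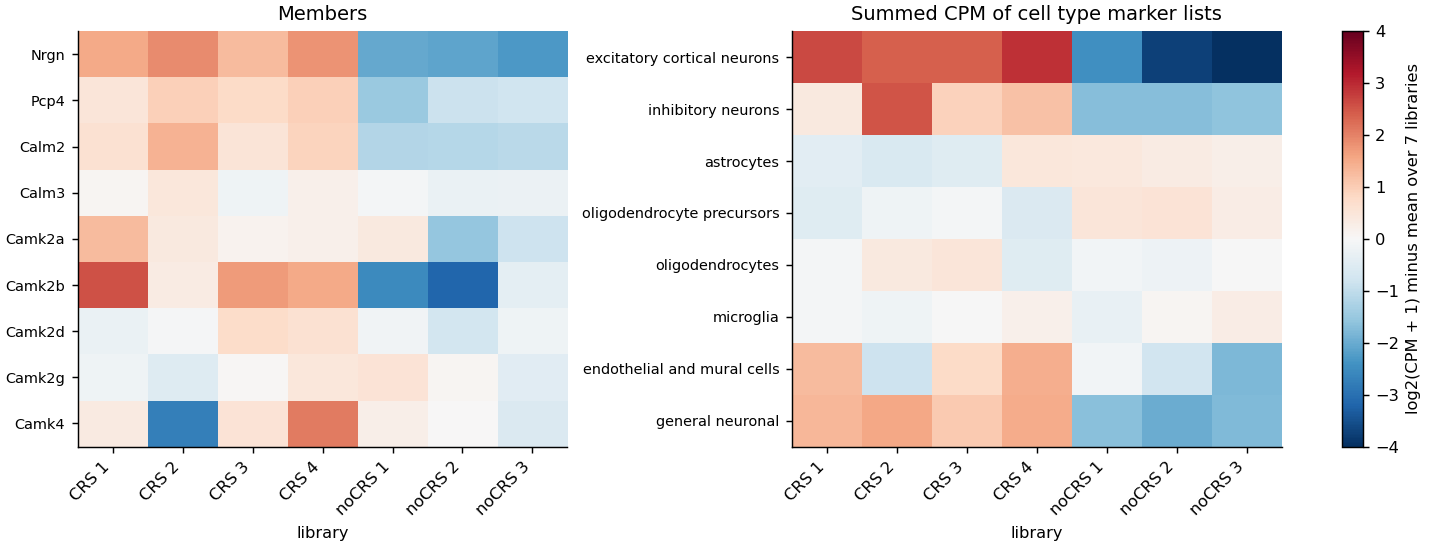
Members (left panel) and summed CPM of the cell type marker lists (right panel) in each library, as log2(CPM + 1) minus the mean over the 7 libraries, with CRS libraries in the left columns and noCRS libraries in the right columns of each panel. Red is above and blue below the mean. Nrgn, Pcp4, Calm2 and the neuronal lists are above their means in all CRS libraries and below them in all noCRS libraries.

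Of the calmodulin genes, Calm2 (chromosome 17, 87433412 to 87446935, minus strand, GRCm38) had 5760.4, 9954, 5473 and 7118 CPM in CRS replicates 1 to 4, against 1681, 1708 and 1789 CPM in noCRS replicates 1 to 3. Every CRS library was above every noCRS library, and the noCRS libraries lay close together. The mean was 7077 ± 2048 CPM in CRS (SD, n = 4) and 1726 ± 56.3 CPM in noCRS (SD, n = 3). The log2 fold change was 2.04 ± 0.23 SE, with an edgeR adjusted p of 0.00574. Per kb of exon, Calm2 ranked 4 among all 55367 genes in the CRS mean and 18 in the noCRS mean.

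Calm3 (chromosome 7, 16915379 to 16924114, minus strand) had 153, 199.99, 131 and 169 CPM in CRS, against 138, 121 and 124 CPM in noCRS. The groups overlapped through CRS replicate 3. Its log2 fold change was 0.35 ± 0.18 SE and did not pass (edgeR adjusted p = 0.478).

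The 2 calmodulin genes thus differed in how their levels compared. Per kb of exon, the ratio of Calm3 to Calm2 was 0.0161, 0.0122, 0.0145 and 0.0143 in CRS, against 0.0498, 0.0430 and 0.0421 in noCRS. The groups did not overlap. The ratio uses the length of all annotated exons of a gene, so its absolute size depends on which transcripts are used, and its difference between the groups was not tested.

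Nrgn (chromosome 9, 37544492 to 37552904, minus strand) showed the largest log2 fold change of the 9 members. It had 186, 240.0, 154 and 224 CPM in CRS, against 14.7, 13.97 and 12.1 CPM in noCRS. The lowest CRS library was about an order of magnitude above the highest noCRS library. The log2 fold change was 3.89 ± 0.23 SE, with an edgeR adjusted p of 0.000386. In each fit that left out 1 library the call held, with log2 fold changes of 3.77 to 3.97.

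Pcp4 (chromosome 16, 96467606 to 96525793, plus strand) had 187, 258, 225 and 258 CPM in CRS, against 46.6, 72.9 and 76.0 CPM in noCRS. All CRS libraries were above all noCRS libraries. The log2 fold change was 1.83 ± 0.23 SE, with an edgeR adjusted p of 0.00776. Of its exon length, 23.7% is shared with the predicted gene Gm49948 on the same strand. Gm49948 had 5760, 7644, 6207 and 9013 counts in CRS and 1793, 1979 and 2194 counts in noCRS, against 6181, 8256, 6804 and 9892 counts of Pcp4 in CRS and 1931, 2270 and 2466 in noCRS. In every library the count of Gm49948 was slightly below that of Pcp4. Whether the same reads were counted for both was not tested. Reads over the shared bases cannot be assigned to one of them, so the value of Pcp4 is uncertain, as are its ratios and order per kb.

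Relative to Calm2, these small binding proteins differed from each other. The ratio of Nrgn to Calm2, per kb, was 0.0243 to 0.0325 in CRS and 0.00681 to 0.00884 in noCRS, with no overlap. The ratio of Pcp4 to Calm2 was 0.0370 to 0.0587 in CRS and 0.0396 to 0.0610 in noCRS, so the groups overlapped. Nrgn relative to Pcp4 was 0.483 to 0.702 in CRS and 0.112 to 0.223 in noCRS. The ratios share their libraries and are given as descriptions, with no test.

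Nrgn and Pcp4 were both called higher in CRS, though by different amounts. The sequence before their starts was read from RefSeq promoter windows (GRCm38.p6), of which 5 of the 9 members had one (Nrgn, Pcp4, Calm3, Camk2b and Camk2d). For Nrgn the 91 bases at chr9:37552905-37552995 are shown (minus strand, 5′ to 3′), since the other 159 bases of its 250-base window lie in an exon of GENCODE M21. For Pcp4 all 250 bases at chr16:96467356-96467605 are shown (plus strand). Capitals mark a match to an E-box.
Nrgn: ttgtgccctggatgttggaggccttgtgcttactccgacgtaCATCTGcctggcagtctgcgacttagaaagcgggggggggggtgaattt
Pcp4: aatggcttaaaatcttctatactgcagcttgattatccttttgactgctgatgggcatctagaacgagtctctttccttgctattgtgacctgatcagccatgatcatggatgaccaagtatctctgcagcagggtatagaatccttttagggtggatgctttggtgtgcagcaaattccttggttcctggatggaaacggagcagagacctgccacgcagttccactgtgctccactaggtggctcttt
On both strands of the 250 bases, Nrgn had 1 E-box (CANNTG, in the bases shown) and 1 GC box (GGGCGG, outside them), and Pcp4 had neither. An E-box was in 66.2% and a GC box in 32.7% of all 32851 promoter windows of this length. The short CRE motif (TGACG, in 17.8% of windows), an AP-1 site (TGANTCA, in 6.75%) and TATAAA (in 12.4%) were found in neither gene's window. The full CRE (TGACGTCA, in 1.55% of windows), which contains the short motif, was also in neither. A match is a description of letters, not of a bound site.

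The CaMKII subunit genes were less abundant and more variable. Camk2b (chromosome 11, 5969644 to 6066362, minus strand), whose subunit ties the kinase to actin, had 64.7, 12.9, 35.6 and 31.3 CPM in CRS, against 0.917, 0.257 and 7.64 CPM in noCRS. The groups did not overlap, though CRS replicate 2 came close to noCRS replicate 3. The mean was 36.1 ± 21.4 CPM in CRS (SD, n = 4) and 2.94 ± 4.09 CPM in noCRS (SD, n = 3). Its log2 fold change was 3.62 ± 1.15 SE, nearly that of Nrgn, but with a wider error, and the edgeR adjusted p was 0.186. Leaving out noCRS replicate 3 brought the noCRS mean to 0.587 CPM, and the gene passed (log2 fold change 5.92, edgeR adjusted p = 0.0476). DESeq2 also called it (adjusted p = 0.00546), as the one member it called besides Nrgn, Calm2 and Pcp4.

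Camk2a (chromosome 18, 60925618 to 60988152, plus strand), the subunit gene typical of forebrain excitatory neurons, had 25.7, 13.5, 11.1 and 11.6 CPM in CRS, against 13.5, 2.83 and 5.24 CPM in noCRS. The highest noCRS library lay within the CRS range. The log2 fold change was 1.11 ± 0.68 SE (edgeR adjusted p = 0.589). CRS replicate 1 stood above the other CRS libraries, and the noCRS mean was 4.03 CPM without noCRS replicate 1, against 7.20 CPM with it. Per kb, Camk2a ranked 11080 of 55367 genes in the CRS mean and 14397 in the noCRS mean.

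Camk2d and Camk2g, whose subunits are made in many cell types, did not pass. Camk2d (chromosome 3, 126596302 to 126846326, plus strand) had 37.0 to 74.5 CPM in CRS and 26.6 to 40.5 CPM in noCRS (log2 fold change 0.66 ± 0.33 SE, edgeR adjusted p = 0.446). Camk2g (chromosome 14, 20734875 to 20794088, minus strand) had 26.6 to 52.4 CPM in CRS and 27.7 to 56.8 CPM in noCRS. Its log2 fold change of -0.13 ± 0.34 SE was the single negative value among the members (edgeR adjusted p = 0.935), and its sign turned without noCRS replicate 1 and with limma-voom.

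Camk2b held a larger share of the CaMKII mixture in CRS, with 25.7 ± 10.8% in CRS (SD, n = 4) and 4.04 ± 6.01% in noCRS (SD, n = 3) and no overlap. The Camk2a share overlapped, with 9.60 to 19.6% in CRS and 4.75 to 14.4% in noCRS. Together Camk2a and Camk2b made up 60.2, 34.7, 36.1 and 30.7% of the summed CaMKII level per kb in CRS, against 15.2, 5.10 and 20.2% in noCRS. The groups did not overlap in this sum. Camk2g made up 41.8 ± 8.37% in CRS (SD, n = 4) and 69.1 ± 11.7% in noCRS (SD, n = 3), with no overlap. The Camk2d share was 17.8 ± 5.78% in CRS and 17.4 ± 4.88% in noCRS. The summed level was 14.5 ± 3.61 CPM per kb in CRS and 9.39 ± 2.77 CPM per kb in noCRS, far below the level of Calm2 per kb. The shares were not tested, and their absolute sizes depend on the exon lengths used (22493 bases for Camk2d, 6401 for Camk2g).

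**Figure D3:**
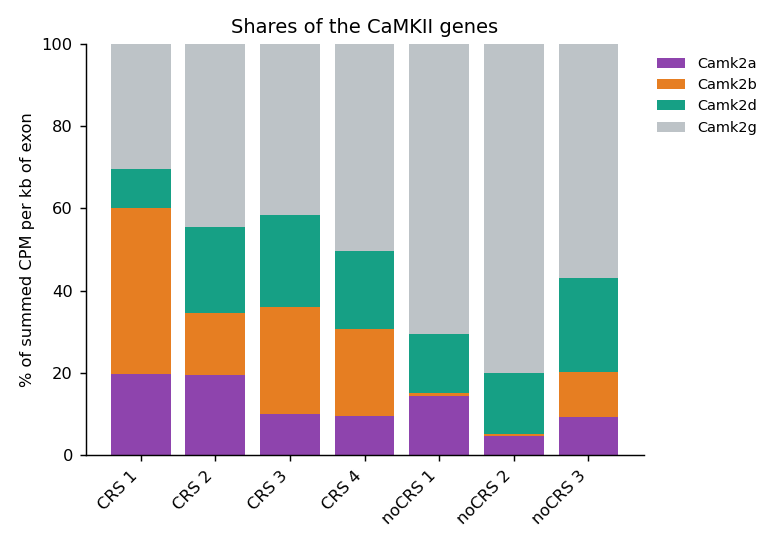
Share of each gene in the summed CPM per kb of exon of the CaMKII genes, in percent (vertical axis), for each library, with CRS libraries left of noCRS libraries. Camk2g holds 30.4 to 50.4% in CRS libraries and 56.8 to 80.1% in noCRS libraries.

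Camk4 (chromosome 18, 32934931 to 33191228, plus strand) had 7.49, 0, 8.68 and 27.1 CPM in CRS, against 6.78, 5.72 and 3.45 CPM in noCRS. CRS replicate 2 held 0 counts of Camk4, which allows up to 0.0936 CPM in that library (3 counts, counting error only). The same library held the highest Calm2, Calm3 and Nrgn levels of all libraries. It also had the fewest genes with any count (16938, against 18604 to 23399 in the others). Whether the 0 reflects transcripts missed in that library was not tested. CRS replicate 4 held the highest Camk4 level, and the CRS mean of 10.8 CPM was 5.39 CPM without it. The log2 fold change was 1.02 ± 1.504 SE (edgeR adjusted p = 0.883). Of its exon bases 72 (2.21%) overlap 2310026I22Rik on the other strand, and strand was not marked.

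**Figure D4:**
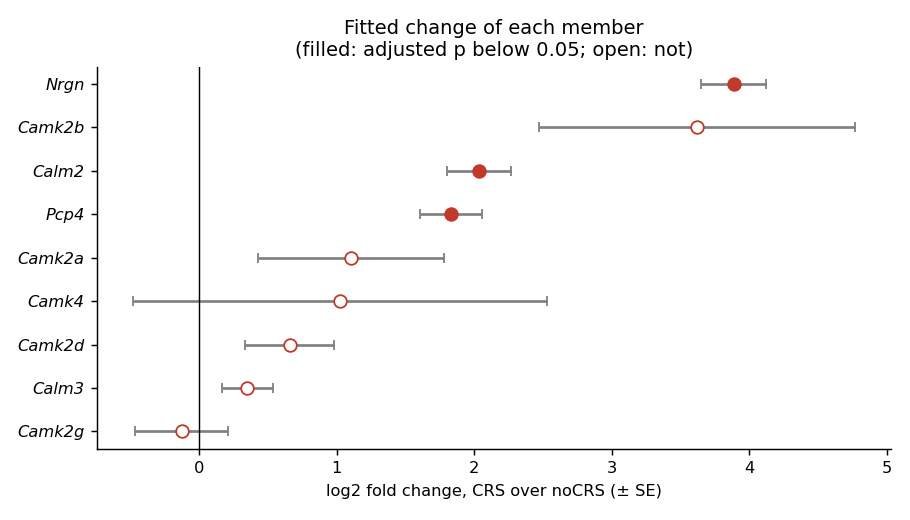
Fitted log2 fold change of each member, CRS over noCRS (horizontal axis), with its standard error, sorted by size down the page. Filled points passed an edgeR adjusted p of 0.05 and open points did not. Nrgn (3.89), Calm2 (2.04) and Pcp4 (1.83) passed, and Camk2b (3.62) did not, with the widest error after Camk4.

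Ordered by level per kb, the CRS means were 4824 CPM per kb for Calm2, 226 for Pcp4, 138 for Nrgn, 67.4 for Calm3, 5.97 for Camk2g, 3.96 for Camk2b, 3.32 for Camk4, 2.49 for Camk2d and 2.08 for Camk2a. The noCRS means were 1177 CPM per kb for Calm2, 63.5 for Pcp4, 52.8 for Calm3, 9.35 for Nrgn, 6.53 for Camk2g, 1.63 for Camk4, 1.58 for Camk2d, 0.964 for Camk2a and 0.322 for Camk2b. Nrgn stood above Calm3 in CRS and below it in noCRS. In noCRS, Pcp4 and Calm3 differed by less than the SD of Pcp4 (15.7 CPM per kb). From Camk4 down, neighbours in the noCRS order differed by less than the larger SD of each pair. In CRS, Camk2b, Camk4, Camk2d and Camk2a lay within 1 SD of their neighbours. The values divide by all annotated exons of a gene (22493 bases for Camk2d, 3259 for Camk4). The order therefore depends on which transcripts are used.

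Among other genes of calmodulin signalling, 15 of 64 tested genes rose and edgeR called 0 lower, where 2.07% of all tested genes were called higher and 0.23% lower. Before adjustment 2 were lower (edgeR p under 0.05), where 697 of all 17833 tested genes were. DESeq2 called 20 higher (6.84% of all genes) and 2 lower (2.3%), and limma-voom called 13 higher (2.93%) and 0 lower (0.656%). The lists held 65 genes, of which Camk2n2 did not pass the expression filter. The median log2 fold change was 1.11.

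Calcineurin, the phosphatase that calmodulin activates, had 2 of 7 genes higher, where 2.07% of all tested genes were. Its catalytic subunit gene Ppp3ca had 420 ± 71.1 CPM in CRS (SD, n = 4) and 133 ± 27.3 CPM in noCRS (SD, n = 3), with an edgeR adjusted p of 0.00753. Its regulatory subunit gene Ppp3r1 had 615 ± 161 CPM in CRS and 149 ± 33.6 CPM in noCRS (edgeR adjusted p = 0.00928), and shares 14.3% of its exon length with Wdr92. The catalytic subunit gene Ppp3cb had 51.8 ± 22.5 CPM in CRS and 18.6 ± 1.78 CPM in noCRS (edgeR adjusted p = 0.0986).

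Of 10 tested genes for other CaM kinases and CaMKII inhibitors, 1 rose, where 2.07% of all tested genes did. Pnck, a kinase of the CaMKI family, had 91.9 ± 15.3 CPM in CRS (SD, n = 4) and 35.6 ± 11.1 CPM in noCRS (SD, n = 3), with an edgeR adjusted p of 0.0453 that was lost without any single library (up to 0.151). Camkv, a kinase-like protein of synapses without kinase activity, had 50.9 ± 32.2 CPM in CRS and 5.84 ± 3.67 CPM in noCRS (edgeR adjusted p = 0.0546, and 0.0389 without CRS replicate 2). Camk1d had 27.1 ± 12.5 CPM in CRS and 8.34 ± 0.566 CPM in noCRS (edgeR adjusted p = 0.117).

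Of 10 calmodulin-binding IQ and related proteins, 1 rose, where 2.07% of all tested genes did. Gap43, a growth cone protein with an IQ motif like that of Nrgn, had 482 ± 82.6 CPM in CRS (SD, n = 4) and 56.8 ± 14.4 CPM in noCRS (SD, n = 3). Its log2 fold change was 3.08 ± 0.25 SE, with an edgeR adjusted p of 0.00129. Marcksl1, a calmodulin-binding membrane protein, had 36.9 ± 8.85 CPM in CRS and 68.0 ± 14.9 CPM in noCRS (edgeR adjusted p = 0.167). Camta1, a calmodulin-binding transcription activator, had 74.6 ± 7.53 CPM in CRS and 51.4 ± 14.3 CPM in noCRS (edgeR adjusted p = 0.391).

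Of 11 calmodulin-regulated enzymes, 2 rose, where 2.07% of all tested genes did. Pde1a, a phosphodiesterase that calmodulin activates, had 171 ± 12.01 CPM in CRS (SD, n = 4) and 16.7 ± 8.61 CPM in noCRS (SD, n = 3), with an edgeR adjusted p of 0.00492. The plasma membrane calcium pump gene Atp2b1 had 390.03 ± 65.8 CPM in CRS and 142 ± 30.5 CPM in noCRS (edgeR adjusted p = 0.0139, and 0.0552 without noCRS replicate 2). The related pump gene Atp2b2 had 36.3 ± 18.2 CPM in CRS and 9.48 ± 4.88 CPM in noCRS (edgeR adjusted p = 0.166).

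Of 13 genes for CaM kinase targets, 2 rose, where 2.07% of all tested genes did. The median log2 fold change of the 13 was 0.05. Grin2b, an NMDA receptor subunit that binds CaMKII, had a log2 fold change of 4.17 ± 0.46 SE (edgeR adjusted p = 0.00492). Mef2c, a transcription factor under control of CaM kinases, had 205 ± 104 CPM in CRS (SD, n = 4) and 19.96 ± 2.86 CPM in noCRS (SD, n = 3). Its edgeR adjusted p of 0.0117 was lost without noCRS replicate 1 (0.0628) or 2 (0.0689). Syn1, a vesicle phosphoprotein, had 104 ± 49.5 CPM in CRS and 40.5 ± 14.8 CPM in noCRS (edgeR adjusted p = 0.161).

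The other EF-hand calcium sensors had the most calls of these lists, with 7 of 13 higher, where 2.07% of all tested genes were. DESeq2 called 7 of them higher (6.84% of all genes) and 1 lower (2.3%), and limma-voom called 5 higher (2.93%) and 0 lower (0.656%). In the edgeR fit 2 of the 13 had a negative log2 fold change, and that of S100b was the lowest (-0.87 ± 0.22 SE). S100b had 103 ± 12.9 CPM in CRS (SD, n = 4) and 188 ± 56.4 CPM in noCRS (SD, n = 3), with an edgeR adjusted p of 0.0954. Hpca (hippocalcin) had 70.5 ± 20.5 CPM in CRS (SD, n = 4) and 3.61 ± 2.003 CPM in noCRS (SD, n = 3), with an edgeR adjusted p of 0.00626. Its relative Hpcal4 had 307 ± 80.0 CPM in CRS and 66.1 ± 14.5 CPM in noCRS (edgeR adjusted p = 0.00641). Efhd2 had 159 ± 43.6 CPM in CRS and 40.9 ± 9.07 CPM in noCRS, and Vsnl1 had 37.5 ± 8.37 CPM in CRS and 4.196 ± 2.06 CPM in noCRS. Necab1, Ncs1 and Ncald also rose, by log2 fold changes of 4.74, 2.07 and 0.65. Those calls were lost in edgeR fits without single libraries: Ncs1 without any one library (adjusted p up to 0.178), Ncald without each library except CRS replicate 2 (up to 0.211), Necab1 without CRS replicate 1, 3 or 4 or noCRS replicate 1 or 3 (up to 0.110), and Vsnl1 without CRS replicate 4 or noCRS replicate 2 (up to 0.0774).

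**Figure D5:**
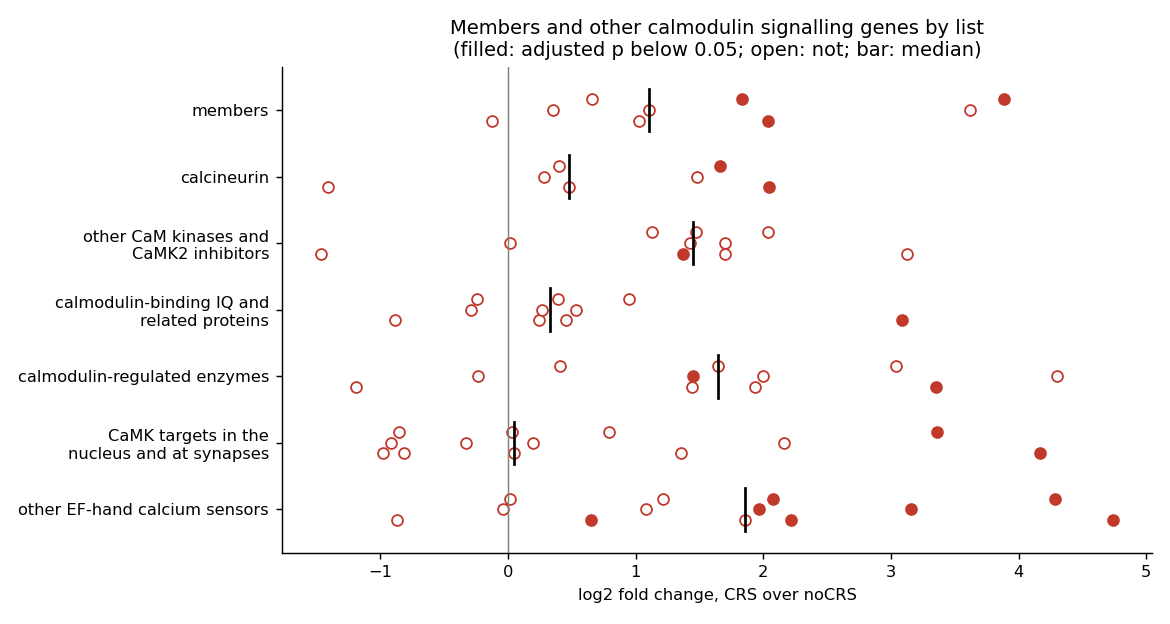
Log2 fold change, CRS over noCRS (horizontal axis), of the members and of the tested genes in each list of calmodulin signalling, with 1 point per gene and a black bar at each list's median. Filled points passed an edgeR adjusted p of 0.05. All filled points lie to the right of 0, and the members (3 of 9) and the other EF-hand calcium sensors (7 of 13) hold the most.

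Scaling by library totals alone shifted the middle log2 fold change over all genes by -0.16 and the share of higher genes among all calls to 79.5%, against 90% with TMM factors. Nrgn, Calm2 and Pcp4 passed under that scaling too, and the log2 fold changes of the 9 members kept their signs. Of the other calmodulin signalling genes, library totals alone left 12 called, against 15 with TMM factors. Those lost were Pnck, Ncs1 and Ncald (edgeR adjusted p = 0.0797, 0.0721 and 0.134). With median-ratio factors 13 were called, and Ncs1 (edgeR adjusted p = 0.0513) and Ncald (0.0622) were lost.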

How the data were processed

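The authors deposited raw, unnormalised read counts for each gene, with its exon length. The submitters' processing notes name the build GRCm38 and the tools featureCounts, DESeq2, FastQC, HISAT2 and HISAT, without versions. The column names end as those of the aligner STAR do, so the aligner was not settled. The library kit, a transposase kit per the labels' protocols, does not mark strand. All 9 members had the start and end of GENCODE M21. No pair of libraries was a duplicate (mean chi-square per gene at least 99.0).

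The test was that of edgeR 4.0.16 under R 4.3.3 (CRS over noCRS with no covariate, TMM factors, filterByExpr, quasi-likelihood test), Benjamini-Hochberg adjusted over 17833 genes at a threshold of 0.05. Alternatives were DESeq2 1.42.0, limma-voom (limma 3.58.1), other scalings and filters, a threshold of 0.1, each library left out, and the replicate number as a block. The fit was tested on simulated data. Those counts were drawn from the fit's own estimates, so they cannot show how well its model suits these libraries. Members, lists and tests were chosen with earlier results of these data known. Genes named were the members, of each list all genes past the threshold and the 3 of smallest p, and the 5 genes most correlated with Nrgn, and some that these rules took in are not reported here. Library totals were 28677703 to 39965667 counts. The floor given for a count of 0 covers counting error only, because reads copied by PCR are not separate molecules.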

Additional observations from a re-analysis of the deposited data

Results flagged for a closer look

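In 3 of 31 named genes, 1 CRS library lay far from the other CRS libraries relative to the group's whole range. Such a gap arises by chance in about 1 of 20 groups at this cut-off. Camk2a was at 25.7 CPM in CRS replicate 1, where the other CRS libraries had 11.1 to 13.5 CPM. Syn1 was at 178 CPM in the same library, with 72.5 to 84.7 CPM in the others. Ncs1 was at 151 CPM in CRS replicate 4, with 61.7 to 71.5 CPM in the others. The noCRS libraries, 3 in number, were too few for this comparison.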

How the results depend on the processing

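edgeR called 410 genes with all libraries and 142 to 352 genes when 1 library was left out, 714 at an adjusted p of 0.1, while DESeq2 called 1631 and limma-voom 639. Of the 9 members, 3 were called with all libraries and 3 to 4 with 1 left out. Of the other calmodulin signalling genes, 15 were called with all libraries and 9 to 14 with 1 left out, the fewest without noCRS replicate 2. With the replicate number as a block, on the 6 libraries numbered 1 to 3, 12 genes, 1 member (Nrgn, adjusted p = 0.0479) and 1 other signalling gene (Gap43) were called, and without the block on the same libraries 184 genes, a fit added after seeing the data. In the block fit Calm2 and Pcp4 had adjusted p of 0.1002 and 0.0713. Same-numbered libraries had correlations of 0.0153, -0.00319 and 0.0228 of their deviations from group means, and not every library correlated best with its own number, so the numbers were not taken as pairs. The log2 fold change of Camk2g ranged from -0.35 to 0.17 when 1 library was left out (positive without noCRS replicate 1) and was 0.086 with limma-voom, against -0.13, and that of Camk4 was -0.89 with the block, against 1.02, and the cause was not tested. Over 31 named genes and 496 alternative values, 421 kept direction and side of the threshold. Camk4 and Camk2a did not pass, which does not show that they did not differ.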

Other observations

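Among 10817 genes with a mean of at least 5 CPM, leaving out Nrgn itself, predicted models and pseudogenes, Atp6v1g2, Ywhah, Galnt14 and Hprt were among those with the highest Pearson correlations of log2 CPM with Nrgn over the 7 libraries, from 0.997 to 0.998. Of the other members, Calm2 (0.983) and Pcp4 (0.960) came closest, followed by Camk2b (0.814), Calm3 (0.753), Camk2a (0.680), Camk2d (0.608), Camk2g (-0.126) and Camk4 (-0.174). The 7 libraries share the split into CRS and noCRS, so the values are a description and carry no p-value. Galnt14 had 0 counts in every noCRS library and 6.44 to 26.9 CPM in CRS. It met the 5 CPM mean through the CRS libraries alone, so its correlation largely restates that split.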
